A study of Mus musculus with 12 samples.

Results

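The genes described are 43 mouse enzymes that break down amino acids or run the methionine cycle, chosen as a list of gene symbols and grouped by the amino acid they act on. All 43 were present among the 16703 genes measured in whole liver and among the 16273 measured in liver sinusoidal endothelial cells (LSEC). RNA-seq libraries came from C57BL/6 mice in 4 groups of 3 libraries: whole liver with nonalcoholic steatohepatitis (NASH), a fatty and inflamed liver disease, whole liver on chow, LSEC with NASH, and LSEC on chow. NASH was produced with a diet given for 36 weeks. That feeding protocol is attached to every sample, the chow ones included, so the age and feeding time of the chow mice cannot be read from it. LSEC form the porous wall of the liver's blood channels, and they were collected with magnetic beads by depletion of CD11b-positive cells followed by selection for CD146. The labels do not say whether the 3 libraries of a group came from separate animals, so a p-value reflects how much the samples of a group varied, and that variation may be technical. The comparison in each tissue asks which of the enzymes differ between NASH and chow.

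Amino acids that are not built into protein are stripped of nitrogen by aminotransferases and dehydratases, and their carbon skeletons are oxidised or turned into glucose, mostly in hepatocytes. Methionine is activated to S-adenosylmethionine, the cell's methyl donor, and the homocysteine left after methyl transfer is either remethylated or passed through transsulfuration to cysteine. Branched-chain amino acids differ in that their first breakdown step takes place largely outside the liver.

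In NASH liver the enzyme genes were broadly lower. By limma with Benjamini-Hochberg adjustment over all genes (adjusted p under 0.05), 33 of 43 fell and 0 rose, against a background of 21.0% of all liver genes called lower and 25.0% called higher. At an unadjusted p under 0.05, 39 were lower and 0 higher, and edgeR and DESeq2 on recovered reads each called 34 lower and 0 higher. The authors' deposited fits listed 34 as lower and 0 as higher (the authors' deposited table, adjusted p under 0.05). The median log2 fold change of NASH over chow was -0.83 for the 43 genes and 0.02 for all liver genes. For 35 of the 43 genes all 3 NASH libraries lay below all 3 chow libraries, which was the case for 27.3% of all liver genes.

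Together the enzymes took 1.93%, 2.03% and 1.54% of the reads in the NASH livers, against 4.23%, 3.93% and 3.23% in the chow livers. The shares did not overlap, and the lowest chow liver was well above the highest NASH liver. In a bulk sample, fewer hepatocytes and less RNA per hepatocyte cannot be told apart. Other cell types moved with diet in the same libraries. The 11 measured hepatocyte markers took 7.94% to 8.83% of reads in NASH livers and 11.04% to 11.9% in chow livers. Of these 11 markers 7 fell, 0 rose and none was at 0, and their mean log2 fold change was -0.68. Leukocyte and macrophage markers rose for 9 of 10 genes, with summed levels of 39977 to 66854 normalized reads in NASH livers and 14967 to 21989 in chow livers. Stellate cell and fibroblast markers rose for 6 of 8, with sums of 56804 to 80268 against 20147 to 22959 normalized reads, and cholangiocyte markers for 6 of 6, with 18162 to 35637 against 2296 to 2972. None of these markers was at 0 in a liver library, and their part in the enzyme results was not tested.

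Because the hepatocyte markers and the read totals both shifted, the same test was also read on 2 other scales. Scaling by total reads moved the median of all liver genes by 0.40 on the log2 scale and left 23 enzymes lower and 2 higher (Glud1 and Mccc1), against backgrounds of 5.41% lower and 47.2% higher. Centring each library on the mean of the hepatocyte markers left 19 lower and 8 higher (Glud1, Prodh, Aldh4a1, Bckdha, Bckdhb, Mccc1, Pcca and Pccb), against backgrounds of 2.54% and 65.6%. Fah, Kmo, Haao, Gpt, Cdo1, Prodh2, Mccc2 and Ftcd, which fell on the deposited scale, had fold changes just above 0 with this centring. The median log2 fold change of the enzymes was -0.42 and -0.15 on these scales. The 19 genes that were lower on all 3 scales were Tat, Hpd, Hgd, Tdo2, Kynu, Sds, Sdsl, Agxt, Gls2, Got1, Mat1a, Gnmt, Ahcy, Cbs, Cth, Oat, Hal, Amdhd1 and Aass. All of them except Sds stayed lower in every one of the 15 liver settings that kept the test's threshold.

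**Figure D1:**
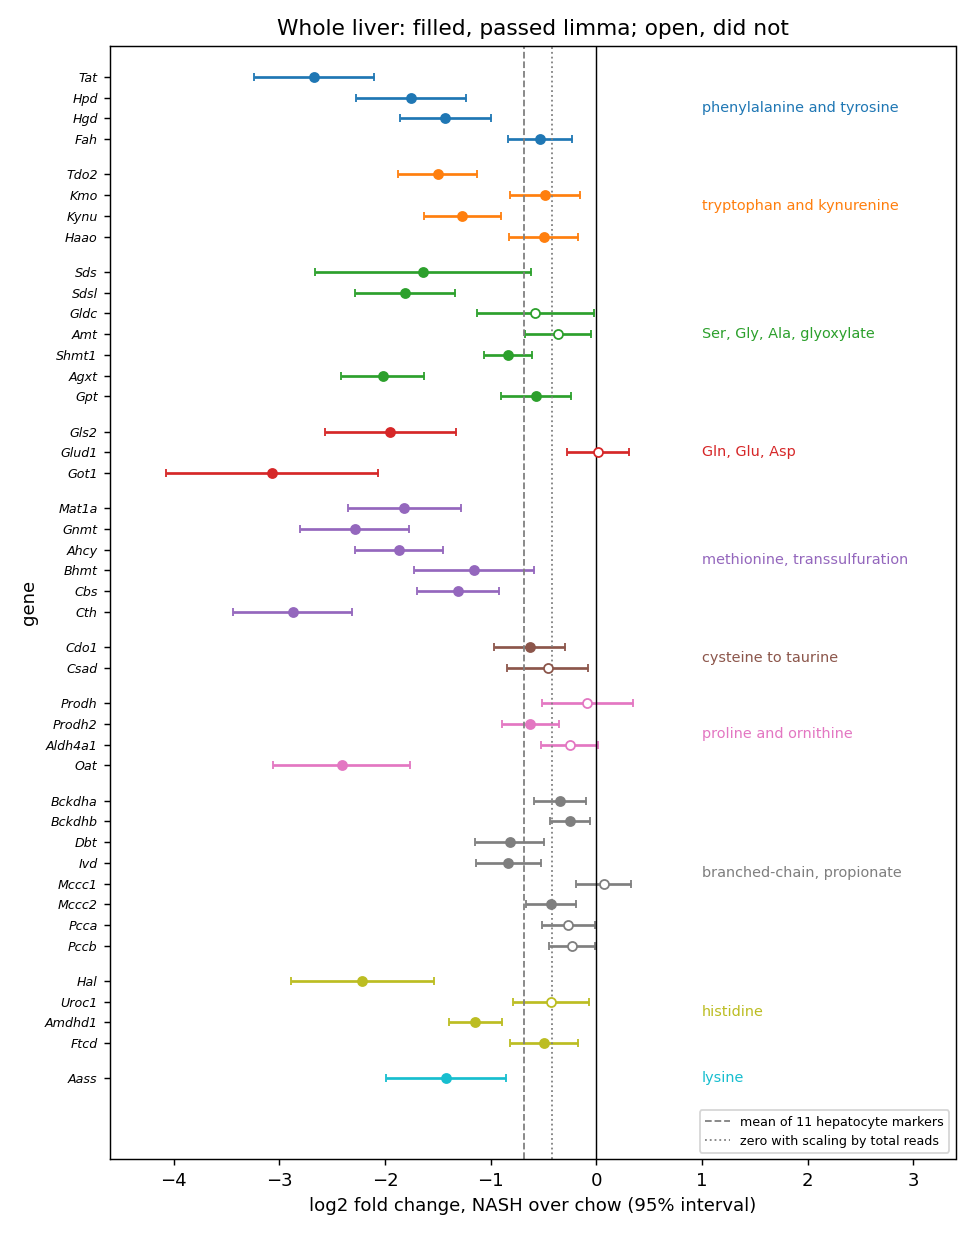
Log2 fold change of NASH over chow in whole liver for each of the 43 enzyme genes, with 95% intervals from limma, coloured by the amino acid pathway; filled points passed at an adjusted p under 0.05. On the deposited scale the 33 filled points all lie left of 0, all 6 genes of the methionine group lie at -1.16 or further left, Got1 lies furthest left of all, and the branched-chain group has the median closest to 0 (-0.31); the dashed line is the mean of 11 hepatocyte markers (-0.68) and the dotted line marks where 0 falls with scaling by total reads.

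On the deposited scale the methionine cycle and transsulfuration genes fell without exception, 6 of 6 (5 of 6 with centring on hepatocyte markers), with a median log2 fold change of -1.84. Mat1a, the S-adenosylmethionine synthetase of adult liver, had the most reads per kilobase of exon of all 43 genes on either diet. It had 170006, 188231 and 137396 normalized reads in NASH livers, against 698537, 620842 and 442811 in chow livers. The highest NASH library was under the lowest chow library, and the log2 fold change was -1.82 ± 0.24 (SE; limma, adjusted p = 0.000278). Gnmt, which spends S-adenosylmethionine on glycine and so drains its excess, had 25265, 28410.5 and 14861 normalized reads in NASH livers and 122728, 114157 and 88734 in chow livers. That gap was wider than that of Mat1a, at -2.29 ± 0.23 on the log2 scale (adjusted p = 6.23e-05). Ahcy, which clears the S-adenosylhomocysteine that methyl transfer leaves behind, fell by 1.87 on the log2 scale.

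Both routes out of homocysteine were lower. Bhmt, which remethylates it with betaine, had 55114, 87870.4 and 51462 normalized reads in NASH livers and 180126, 152611 and 101177 in chow livers. The groups did not overlap, although NASH library 2 came close to chow library 3, and the fold change was -1.16 ± 0.25 (adjusted p = 0.00468). Cbs, the entry step of transsulfuration, fell by 1.31 on the log2 scale. Cth, which releases cysteine at the end of transsulfuration, had 8462, 10314 and 5865 normalized reads in NASH livers and 75309.7, 67521 and 39739.5 in chow livers. On average chow livers held 7.41 times as many Cth reads, a log2 fold change of -2.87 ± 0.25 (adjusted p = 3.16e-05). Cth lies on chromosome 3 at 157894248 to 157925077 in mm10. Downstream of cysteine, Cdo1, the dioxygenase that opens the path to taurine, fell by 0.63 on the log2 scale, while Csad, the decarboxylase after it, missed the threshold (-0.46 ± 0.17, adjusted p = 0.05004). Where exons of Csad overlap those of Zfp740 on the opposite strand, reads of both genes cannot be told apart, since the liver library kit does not keep strand.

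Got1, the cytosolic aspartate aminotransferase, showed the largest fall of the 43. It had 6439, 7426 and 3087 normalized reads in NASH livers, against 74650.1, 56927 and 20642 in chow livers. The chow libraries themselves spread widely, and chow library 3 was the lowest of them, yet it still lay above every NASH library. The log2 fold change was -3.07 ± 0.45 (adjusted p = 0.000500), and Got1 lies on chromosome 19 at 43499752 to 43524605. Gls2, the liver-type glutaminase, fell by 1.95 on the log2 scale. Glud1, the mitochondrial glutamate dehydrogenase, had 42838, 45652 and 42412 normalized reads in NASH livers and 37514, 41764 and 50951 in chow livers. The NASH values sat inside the chow range, and the fold change was 0.02 with a 95% interval of -0.274 to 0.311.

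Oat, ornithine aminotransferase, stood apart from the other proline and ornithine genes. It had 24435, 42317 and 18685 normalized reads in NASH livers and 174907, 159462 and 104109 in chow livers. The log2 fold change was -2.41 ± 0.29 (adjusted p = 0.000160), with the groups far apart. Prodh, proline dehydrogenase, had 11794, 8912 and 6169 normalized reads in NASH livers and 8553, 9527 and 9486 in chow livers. NASH library 1 was the highest of all 6 and NASH library 3 the lowest, and the gene did not pass (-0.08 ± 0.19, adjusted p = 0.744). Aldh4a1, which finishes the oxidation of proline, did not pass either (-0.25 ± 0.12, adjusted p = 0.116). Prodh2, the hydroxyproline dehydrogenase, fell by 0.62 on the log2 scale.

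**Figure D2:**
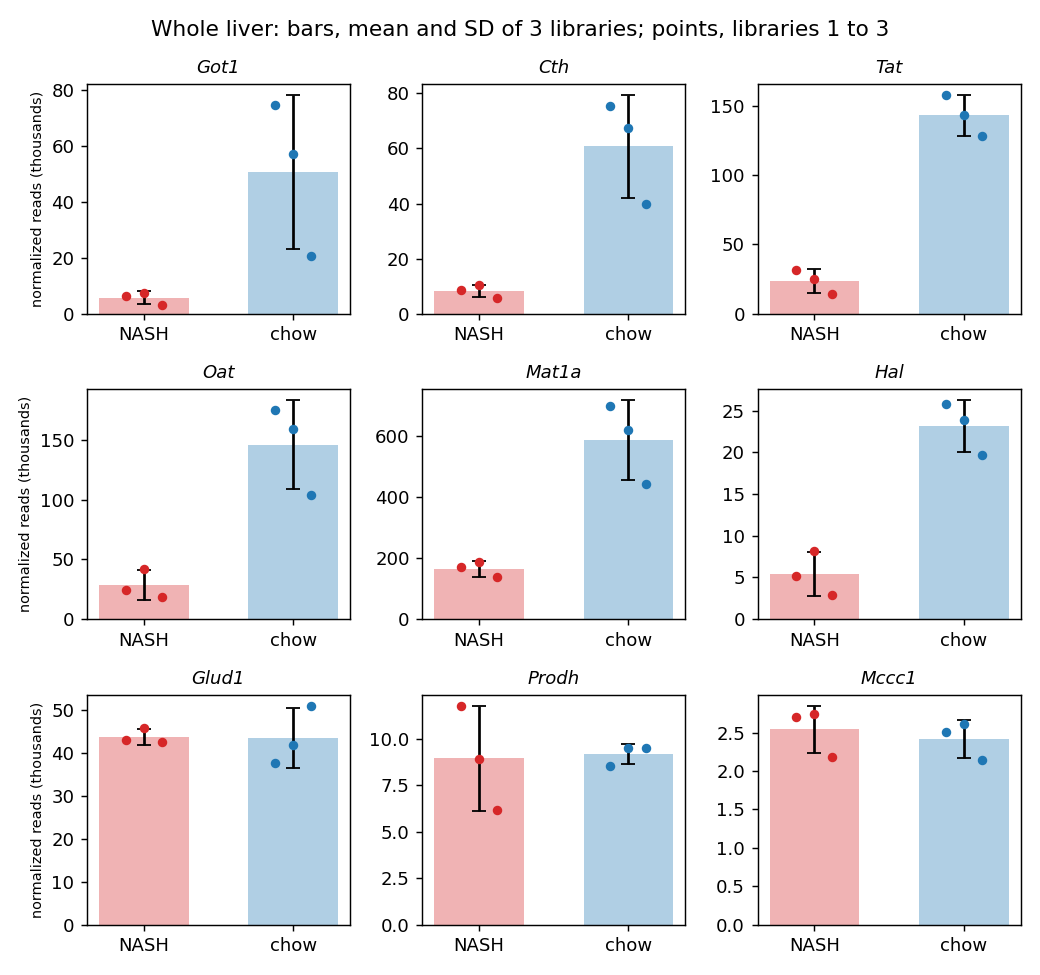
Normalized reads, divided by 1000, of 9 enzyme genes in whole liver, NASH left of chow; bars are means, error bars SD, points the 3 libraries of each group, and every vertical axis starts at 0. For Got1, Cth, Tat, Oat, Mat1a and Hal all NASH points lie under all chow points, whereas for Glud1, Prodh and Mccc1 the points of both groups overlap.

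On the deposited scale the 4 tyrosine genes all fell, and the estimates were ordered as the steps of the pathway are. Tat, the aminotransferase that takes the first step and is a classic glucocorticoid-induced liver gene, had 31816, 24975 and 14140.4 normalized reads in NASH livers and 158054, 142991 and 128343 in chow livers. These libraries were far apart by diet, with a log2 fold change of -2.67 ± 0.25 (adjusted p = 4.61e-05). Hpd, the dioxygenase of the second step, stood at -1.75, Hgd, which opens the ring of homogentisate, at -1.43, and Fah, which makes the final cut, at -0.53. The estimates of Hpd and Hgd differed by little more than their standard errors. A ratio of genes within a library does not depend on its scaling, and the pairs used here were chosen after their values had been seen. The log2 ratio of Tat to Fah was 0.12, -0.21 and -0.62 in NASH livers, against 2.05, 1.79 and 1.87 in chow livers. The mean difference was -2.14, and the two-sided exact permutation p of 0.1 is the smallest that 3 against 3 libraries can give. Qdpr, which regenerates tetrahydrobiopterin, also fell (-0.92), and 3 of 4 other genes of phenylalanine and tyrosine metabolism fell in all.

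Of the 4 histidine genes 3 fell, by unequal amounts that did not follow the order of the steps. Hal, histidase, the entry enzyme, had 5219, 8174 and 2838 normalized reads in NASH livers, against 25787, 23908 and 19701 in chow livers. No library crossed between the diets, and the log2 fold change was -2.22 ± 0.30 (adjusted p = 0.000342). Amdhd1, the imidazolonepropionase, fell by 1.14 and Ftcd, which hands the last carbon unit to folate, by 0.49 on the log2 scale. Uroc1, urocanase, narrowly missed (-0.43 ± 0.16, adjusted p = 0.0504), although its groups did not overlap. The log2 ratio of Hal to Ftcd averaged -1.51 ± 0.49 in NASH livers and 0.21 ± 0.11 in chow livers (SD, n = 3; exact permutation p = 0.1, two-sided, the smallest possible).

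On the deposited scale the tryptophan genes fell in all 4 cases but by unequal amounts. Tdo2, tryptophan dioxygenase, which controls entry, had 66000.4, 62715 and 45314 normalized reads in NASH livers and 161278, 168688 and 156587 in chow livers. The chow libraries were close together and all far above the NASH libraries, and the fold change was -1.502 ± 0.17 (adjusted p = 0.0001002). Kynu, kynureninase, fell by 1.27, whereas Kmo, the kynurenine monooxygenase, and Haao, the hydroxyanthranilate dioxygenase, fell by 0.49 and 0.50. The NASH and chow libraries of Kmo overlapped, and its call was lost on leaving out NASH library 1 or 3 or chow library 1 or 2. Of 7 other tryptophan genes 6 fell, with Acmsd, which diverts the pathway away from NAD, at -1.97, Aadat at -1.33 and Ccbl2 at -1.08.

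Among the serine, glycine, alanine and glyoxylate genes 5 of 7 fell. Agxt, which detoxifies glyoxylate with alanine, had 5130.0, 6706 and 3852 normalized reads in NASH livers and 21727, 22212 and 18426 in chow livers. The separation by diet was complete, at -2.02 ± 0.18 (adjusted p = 2.93e-05). Sds, serine dehydratase, had 7440.2, 6578 and 1704 normalized reads in NASH livers and 15789, 14587 and 10957 in chow livers. NASH library 3 was far below the other NASH libraries, which widened the error to 0.46 around a fold change of -1.64 (adjusted p = 0.0151). Its relative Sdsl fell by 1.81, Shmt1, the cytosolic serine hydroxymethyltransferase, by 0.84 and Gpt, alanine aminotransferase, by 0.57. Gldc and Amt, the decarboxylase and the aminomethyltransferase of the glycine cleavage system, did not pass (-0.58 ± 0.25 and -0.36 ± 0.14, adjusted p = 0.0811 and 0.0593). Aass, which starts lysine breakdown, had 14083, 16334 and 8548 normalized reads in NASH livers, against 42022, 37369.8 and 24186 in chow livers, a log2 fold change of -1.42 ± 0.25 (adjusted p = 0.00151).

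On the deposited scale the branched-chain and propionate genes had the group median closest to 0, at -0.31, and 5 of 8 fell. Their median was 0.11 with scaling by total reads, with 2 lower and 1 higher, and 0.38 with centring on hepatocyte markers, with 0 lower and 5 higher. Ivd, isovaleryl-CoA dehydrogenase of leucine breakdown, had 6479, 7033 and 4738 normalized reads in NASH livers and 10983, 11188 and 9967 in chow livers, and fell by 0.83. Dbt, the transacylase core of the branched-chain ketoacid dehydrogenase, fell by 0.82, while the Bckdha and Bckdhb subunits of its first component fell by 0.34 and 0.24 only. Both of these small calls were lost on leaving out NASH library 3 or either of chow libraries 1 and 2, and that of Bckdhb also without NASH library 2. With centring on hepatocyte markers both genes were higher. Of the methylcrotonyl-CoA carboxylase pair, Mccc2 fell by 0.43 and Mccc1 did not pass (0.07 ± 0.12, adjusted p = 0.649). The propionyl-CoA carboxylase subunits Pcca and Pccb did not pass (-0.27 and -0.23). Of 16 other branched-chain genes 9 fell and 1 rose on the deposited scale, led by Hsd17b10 at -1.37, a mitochondrial dehydrogenase of isoleucine breakdown. Of the same 16 genes 2 were lower and 1 higher with scaling by total reads, and 1 lower and 10 higher with centring on hepatocyte markers.

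The order of expression shifted with these changes. Per kilobase of annotated exon, the highest levels in NASH livers were 47639 normalized reads for Mat1a, 37422 for Cdo1, 26102 for Hpd and 18943 for Gnmt. In chow livers they were 169376 for Mat1a, 89999.5 for Gnmt, 86496 for Hpd, 61932 for Oat and 59513 for Tat. Oat and Tat stood at 12067 and 9831 per kilobase in NASH livers, close to Glud1 at 10364, which was at 10311 in chow livers.

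The libraries of a group were not interchangeable for these genes. NASH library 3 was the lowest NASH library for 41 of the 43 enzymes, against 29.7% of liver genes that averaged 10 or more normalized reads. Chow library 3 was the lowest chow library for 35 of 43, against 37.9% of such genes. Hepatocyte markers were lowest in the same NASH library for 9 of 11 genes and in the same chow library for 6 of 11. Without NASH library 3 the test called 30 enzymes lower, and without chow library 3 it called 36.

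**Figure D3:**
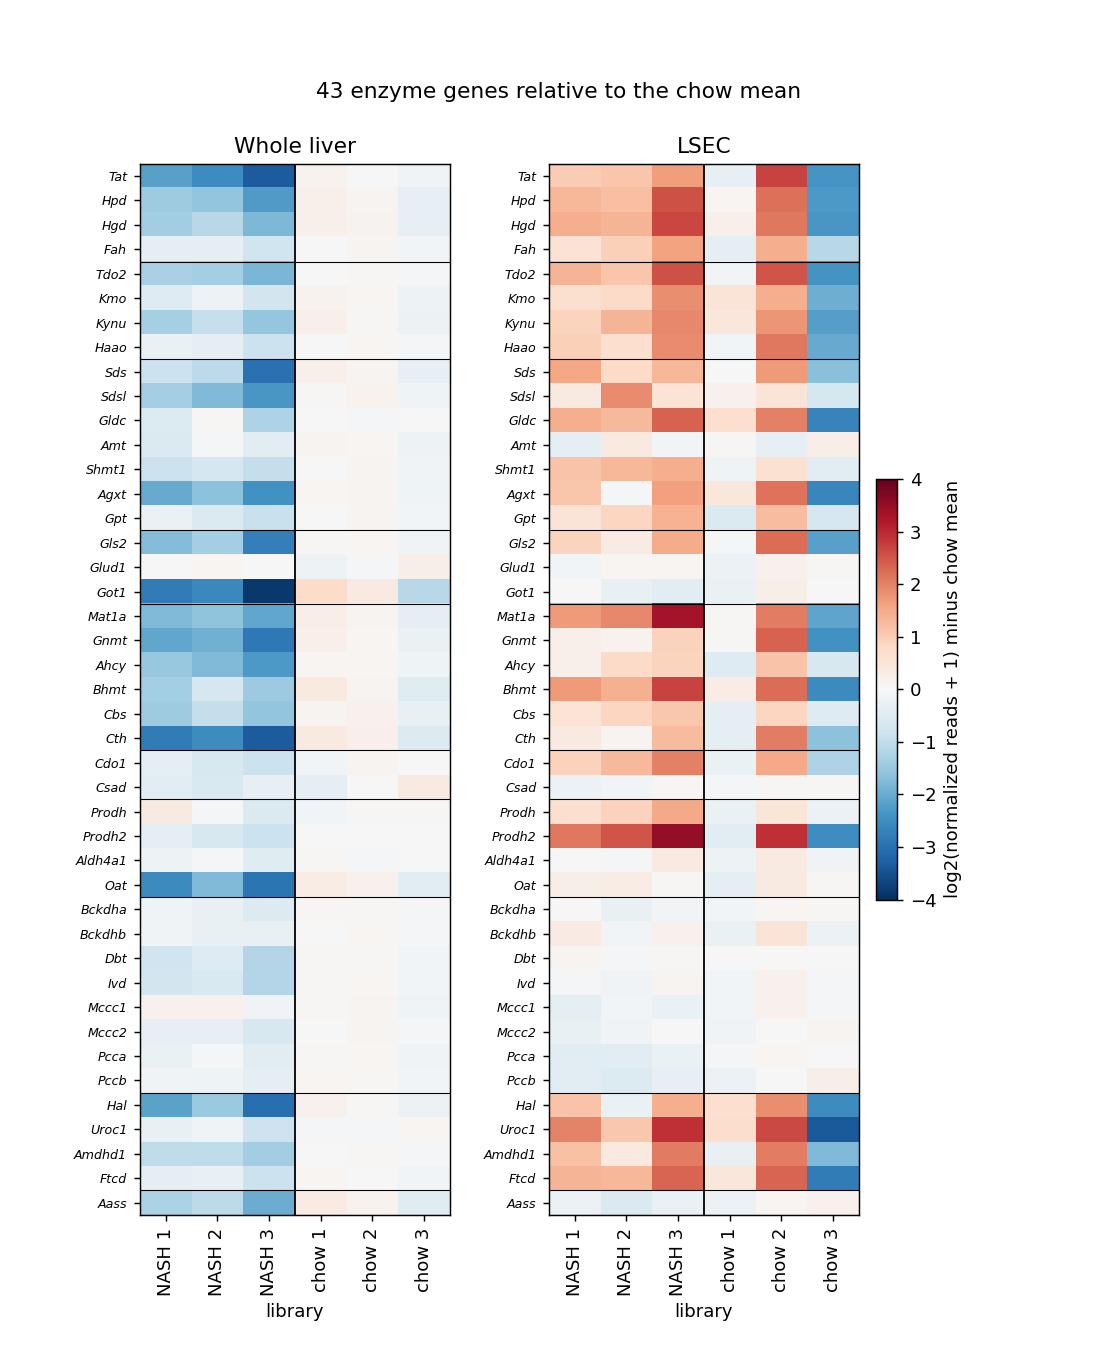
Log2(normalized reads + 1) of each of the 43 enzyme genes minus its chow mean, for the 6 whole liver libraries (left panel) and the 6 LSEC libraries (right panel), ordered by pathway with NASH left of chow. In liver the NASH columns are lower for most genes and NASH 3 is the lowest for 41 of 43; in LSEC the rows that vary are high in chow 2 and low in chow 3, and the diets overlap for most genes.

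The promoters of the 5 genes with the largest falls in liver among those with a RefSeq promoter entry are shown, because these genes fell together. Each window runs from 250 bases before to 50 after the start of the RefSeq transcript (RefSeq, build GRCm38.p6), 5′ to 3′ on the gene's strand. Capitals mark the base at the start and any match to the motifs named after the sequences. The windows are Got1 at chr19:43524556-43524855 (minus strand), Tat at chr8:109990186-109990485 (plus strand), Oat at chr7:132576349-132576648 (minus strand), Gnmt at chr17:46729116-46729415 (minus strand) and Hal at chr10:93488518-93488817 (plus strand).
Got1: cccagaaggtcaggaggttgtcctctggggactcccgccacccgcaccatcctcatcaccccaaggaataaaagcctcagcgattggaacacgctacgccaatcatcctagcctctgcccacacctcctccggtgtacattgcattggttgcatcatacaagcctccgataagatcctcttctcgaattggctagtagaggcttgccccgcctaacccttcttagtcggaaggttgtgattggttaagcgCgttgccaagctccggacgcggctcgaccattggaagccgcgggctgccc
Tat: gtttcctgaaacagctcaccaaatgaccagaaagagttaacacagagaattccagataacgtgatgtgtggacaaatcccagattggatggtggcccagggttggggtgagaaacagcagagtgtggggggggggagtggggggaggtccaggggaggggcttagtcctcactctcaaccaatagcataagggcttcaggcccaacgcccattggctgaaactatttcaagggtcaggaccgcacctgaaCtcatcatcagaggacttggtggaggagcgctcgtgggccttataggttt
Oat: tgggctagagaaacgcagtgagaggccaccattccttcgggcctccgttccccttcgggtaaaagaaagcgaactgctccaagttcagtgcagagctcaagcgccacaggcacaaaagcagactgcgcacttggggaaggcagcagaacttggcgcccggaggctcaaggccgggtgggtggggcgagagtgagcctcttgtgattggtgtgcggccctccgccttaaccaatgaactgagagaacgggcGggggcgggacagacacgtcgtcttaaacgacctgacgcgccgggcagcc
Gnmt: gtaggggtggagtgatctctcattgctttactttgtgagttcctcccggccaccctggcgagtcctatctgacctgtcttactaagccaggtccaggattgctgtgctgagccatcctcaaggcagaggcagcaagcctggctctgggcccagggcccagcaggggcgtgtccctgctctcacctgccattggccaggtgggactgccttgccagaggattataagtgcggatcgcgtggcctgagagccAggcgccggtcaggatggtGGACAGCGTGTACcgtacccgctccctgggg
Hal: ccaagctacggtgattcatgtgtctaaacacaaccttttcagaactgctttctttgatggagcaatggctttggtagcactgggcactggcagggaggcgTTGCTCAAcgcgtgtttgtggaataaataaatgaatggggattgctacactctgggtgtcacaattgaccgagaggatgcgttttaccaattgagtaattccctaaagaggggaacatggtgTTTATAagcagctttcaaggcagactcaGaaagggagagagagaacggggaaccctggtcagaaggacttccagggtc

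In all, 5 motifs were searched on both strands of all 32817 windows in the table, which held 37 windows for 34 of the 43 genes. The TATA box, TATAAA, was found in 13.6% of all windows and in 4 of the 37 (10.8%), those of Ftcd, Hal, Hgd and Tdo2. In Hal it lies 28 to 23 bases before the start, on the opposite strand. The C/EBP motif TTGCNNAA, bound by liver-rich transcription factors, was found in 10.8% of all windows and in 4 of the 37 (10.8%), those of Aass, Hal, Hgd and Prodh2, and in Hal it lies 150 to 143 bases before the start. The glucocorticoid response element, a palindrome with a gap, was in 0.475% of all windows and in that of Gnmt alone among the 37, 19 to 31 bases after the start. The cyclic AMP response element TGACGTCA and the HNF4 motif CAAAGTCCA were in 1.79% and 0.475% of all windows and in 0 of the 37. The 2 motifs with 4 matches each were about as frequent in these windows as in the whole table.

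Genes around these pathways did not all follow the breakdown enzymes, and their counts are given on the deposited scale first. Of the serine and asparagine synthesis genes, Psat1, an aminotransferase of serine synthesis, had 269.9, 233 and 245 normalized reads in NASH livers and 32.03, 47.5 and 26.7 in chow livers. It rose by 2.82 ± 0.24 on the log2 scale (adjusted p = 2.90e-05), while Asns, asparagine synthetase, fell by 2.15 and Phgdh did not pass (1.26 ± 0.49, adjusted p = 0.0602). On either of the other scales 1 of the 4 genes of that list was lower and 3 were higher. Phgdh was then among the higher genes (limma adjusted p = 0.0175 with scaling by total reads and 0.00369 with centring). Of 22 other methionine and folate genes 10 fell and 6 rose, but 6 were lower and 8 higher with scaling by total reads, and 2 lower and 13 higher with centring on hepatocyte markers. Those with the smallest adjusted p were the mitochondrial folate enzymes Mthfd2 (2.18) and Mthfd1l (1.43) and the creatine synthesis enzyme Gamt (0.66), and all rose. Of 13 other lysine, cysteine and proline genes 7 fell and 3 rose, among them the proline synthesis enzymes Aldh18a1 and Pycr1, each at 2.08. That list held 3 lower and 6 higher genes with scaling by total reads, and 0 lower and 6 higher with centring. Of 10 other aminotransferases and serine or glycine genes 6 fell and 3 rose, against 2 lower and 4 higher with scaling by total reads and 1 lower and 7 higher with centring.

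Of 16 amino acid transporters 10 fell and 4 rose, against 9 lower and 5 higher on either of the other scales. Slc7a11, the cystine importer subunit, had 45.9, 44.2 and 49.1 normalized reads in NASH livers and 2.37, 1.08 and 1.03 in chow livers. It rose by 4.29 ± 0.39 on the log2 scale (adjusted p = 3.61e-05), although the chow livers held only a few reads each. Slc16a10, an aromatic amino acid transporter, fell by 1.58 and Slc25a13, the mitochondrial aspartate and glutamate carrier, by 1.17. Of 12 regulators named in textbooks for these enzymes 7 fell and 1 rose, but 2 were lower and 4 higher on either of the other scales. Hnf4a, a nuclear receptor of hepatocyte identity, stood at -1.06, Klf15, a fasting-responsive factor, at -1.07 and Gcgr, the glucagon receptor, at -0.52, which turned to 0.16 with centring on hepatocyte markers. Of 10 periportal hepatocyte markers 8 fell and 0 rose, and 3 of these (Sds, Gls2 and Hal) are among the enzymes. With scaling by total reads 8 periportal markers were lower and 1 higher, and with centring 8 were lower and 2 higher. Of 10 pericentral markers 6 fell and 1 rose, Oat among those that fell, and with centring 3 were lower and 3 higher.

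LSEC libraries held far less of these transcripts, and the diets overlapped for most genes. The enzymes took 0.113%, 0.112% and 0.144% of reads in NASH LSEC and 0.0862%, 0.139% and 0.0954% in chow LSEC. By limma 0 of 43 genes fell and 1 rose, below the background of 2.86% lower and 5.24% higher among all LSEC genes. At an unadjusted p under 0.05, 2 were lower and 3 higher. edgeR called 0 in either direction, against backgrounds of 2.60% lower and 4.56% higher. DESeq2 called 0 lower and 2 higher (Shmt1 and Prodh), against backgrounds of 6.02% and 10.3%, and the same genes were higher in the authors' deposited table. The median log2 fold change was 0.90, against 0.00 for all LSEC genes, but the libraries within a diet differed by more than that.

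Shmt1 was the gene that passed. It had 173, 198 and 217 normalized reads in NASH LSEC and 70.0, 119.7 and 57.3 in chow LSEC. All NASH libraries lay above all chow libraries, at a log2 fold change of 1.30 ± 0.30 (adjusted p = 0.0456). The call was lost with edgeR, with the hepatocyte marker mean as a covariate, with centring on hepatocyte markers, and on leaving out any library except chow library 2. Centring called 0 of all 16273 LSEC genes higher and 2 lower, so the lost call there says nothing about Shmt1. Leaving out 1 of those libraries cut the higher calls among all LSEC genes from 853 to between 75 (without NASH 3) and 793 (without chow 1). With the hepatocyte covariate 0 enzymes were called in either direction, against backgrounds of 0.768% lower and 2.14% higher. Without chow library 2, 0 enzymes were lower and 8 higher (Tat, Fah, Shmt1, Gpt, Mat1a, Cbs, Cdo1 and Prodh2), against backgrounds of 1.78% and 4.70%. Shmt1 lies on chromosome 11 at 60788104 to 60811718, and its exons overlap those of Smcr8 on the opposite strand.

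Many enzyme genes in LSEC shared their highest and lowest chow libraries with hepatocyte transcripts, but not their lowest NASH library. Among chow libraries 37 of 43 enzymes were highest in library 2 and 27 lowest in library 3, as were all 11 hepatocyte markers. Among NASH libraries 32 enzymes and all 11 markers were highest in library 3. However, 23 enzymes were lowest in NASH library 2 and 18 in NASH library 1, whereas 10 of 11 markers were lowest in NASH library 1. Alb, the albumin gene of hepatocytes, had 27789.5, 34837 and 54248 normalized reads in NASH LSEC and 11003, 61571 and 5799.9 in chow LSEC, and Apoa1, an apolipoprotein gene, varied 51.0-fold over the 6 libraries. Chow library 2 was as rich in these transcripts as the richest NASH library, and chow library 3 was the poorest. None of the 11 hepatocyte markers was at 0 in any LSEC library. Tat had 436, 459 and 683 normalized reads in NASH LSEC and 170.3, 1390.4 and 40.9 in chow LSEC. Mat1a had 669.6, 792 and 2068 in NASH LSEC and 213, 864 and 47.1 in chow LSEC. Both had their lowest value in chow library 3, and their groups overlapped.

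Grouped by the ratio of the highest to the lowest of the 6 LSEC libraries, a grouping chosen after the values were seen, 23 enzymes varied 5-fold or more, 5 between 2-fold and under 5-fold, and 15 under 2-fold. All 23 of the first class were lowest in chow library 3, as were all 11 hepatocyte markers. One of them, Prodh2, was at 0 there. The first class held every tyrosine, tryptophan and histidine gene. The 15 genes with a range under 2-fold were Amt, Glud1, Got1, Csad, Aldh4a1, Oat, Aass and all 8 branched-chain and propionate genes. Because the range was taken over both diets, small fold changes in this class follow from the grouping. The part of hepatocyte RNA in the LSEC values was not tested gene by gene.

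**Figure D4:**
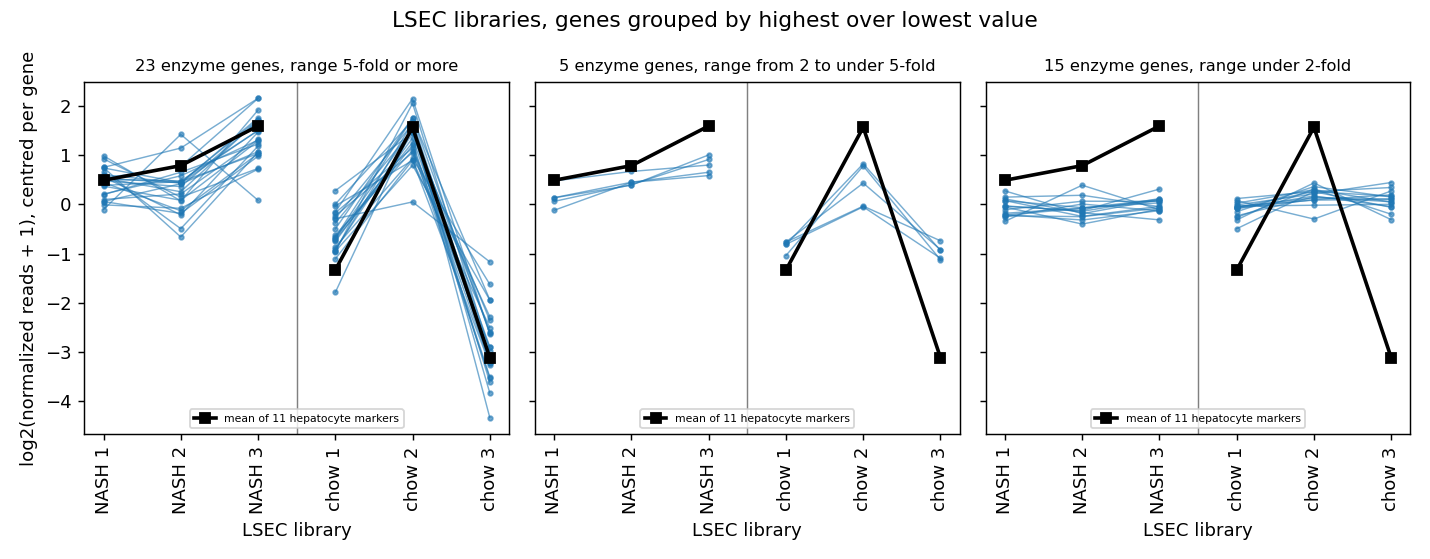
Log2(normalized reads + 1) in the 6 LSEC libraries, each gene centred on its own mean, for the 23, 5 and 15 enzyme genes with a high, middle and low range (blue) and the mean of 11 hepatocyte markers (black squares); lines only join the values of a gene within a diet. The 23 genes with a range of 5-fold or more dip in chow 3 with the hepatocyte markers, and the 15 genes chosen for a range under 2-fold stay within a narrow band.

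Some genes of narrow range had many reads for the amount of hepatocyte RNA present. Aass had 4182, 3283 and 4050.0 normalized reads in NASH LSEC and 4142, 5201 and 5504 in chow LSEC. Per 1000 hepatocyte marker reads this was 11.7 to 153 times the liver level of the same diet. Glud1 had 4477, 5049.5 and 5034 in NASH LSEC and 4108, 5367 and 5006 in chow LSEC, a ratio of 5.27 to 110 times the liver level. For Tat the same ratio was 0.27 to 1.72 and for Mat1a 0.08 to 0.57. The classes overlapped in this ratio, since Oat of the narrow class ran from 0.93 to 9.20 and Shmt1 of the middle class from 0.94 to 5.58. Per kilobase of exon, the highest levels in NASH LSEC were 1153 normalized reads for Glud1, 1006 for Aass and 665 for Oat, and in chow LSEC 1297 for Aass, 1146 for Glud1 and 592 for Oat.

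In LSEC Oat had 1622, 1665 and 1418 normalized reads in NASH LSEC and 1037, 1753 and 1403 in chow LSEC, which overlapped (0.20 ± 0.20, adjusted p = 0.577). Got1 had 1014, 834 and 754 in NASH LSEC and 846, 1207 and 1041 in chow LSEC, also overlapping (-0.25 ± 0.18, adjusted p = 0.424). Pccb had 756, 702 and 801 in NASH LSEC, all below the 868, 1014 and 1193 of chow LSEC, but missed the threshold (-0.43 ± 0.15, adjusted p = 0.121). Of the surrounding genes named for liver, Psat1 (1.71, adjusted p = 0.0355), Aldh18a1 (1.03, adjusted p = 0.0281), Slc16a10 (1.89, adjusted p = 0.0164) and Slc7a11 (2.45, adjusted p = 0.0483) rose in LSEC. In all, 5 of 16 amino acid transporters rose (also Slc1a4, Slc1a5 and Slc43a1) and 1 fell, against backgrounds of 5.24% and 2.86%. From other lists Gpt2 and Bcat1 rose as well. Slc7a11 rested on few reads, with 3.86, 4.67 and 11.2 normalized reads in NASH LSEC and 1.04, 0 and 0 in chow LSEC. Gatm, which starts creatine synthesis, and Slc7a5, a transporter of large neutral amino acids, were picked after their values were seen and fell in LSEC (-0.79 and -0.78, adjusted p = 0.0379 and 0.0118). In NASH liver Gatm rose (0.86, limma adjusted p = 0.00451) and Slc7a5 did not pass (-0.43, limma adjusted p = 0.116).

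Markers of several cell types moved with diet in the same LSEC libraries. All 10 sinusoidal endothelial markers were detected in every library, but their sums were 323112 to 367769 normalized reads in NASH LSEC and 514643 to 544171 in chow LSEC, and 3 of the 10 fell (Clec4g, Fcgr2b and Oit3) while Lyve1 rose. Of 10 macrophage and leukocyte markers 4 rose (Cd68, Adgre1, Itgax and Lyz2) and 0 fell, with sums of 21978 to 23778 in NASH LSEC and 5009 to 15178 in chow LSEC. Of 8 stellate cell and fibroblast markers 4 rose and 0 fell, among them Col1a1 at 4.08 and Col3a1 at 3.37, with sums of 38506 to 74712 in NASH LSEC and 13542 to 29136 in chow LSEC. Of 6 cholangiocyte markers 0 passed in either direction, with sums of 10369.5 to 47238 in NASH LSEC and 4170 to 9450 in chow LSEC. Spp1, one of these markers, had 9393, 42429 and 15403 normalized reads in NASH LSEC, so NASH library 2 stood out. The part of these cell types in the changes of Shmt1, Psat1, Aldh18a1, Slc16a10, Slc7a11, Gatm, Slc7a5 and the other surrounding genes named for LSEC was not tested.

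The liver and LSEC effects were then set against each other for each gene. The log2 fold change of liver minus that of LSEC was tested with a t distribution on the separate fits. Of the 43 enzymes 13 were lower in liver than in LSEC and 0 higher, against backgrounds of 7.99% and 11.5% of 15766 genes. They were Tat, Sds, Sdsl, Shmt1, Got1, Mat1a, Ahcy, Cbs, Cth, Oat, Dbt, Ivd and Aass. An edgeR interaction term on recovered reads called 8 of these, and 7 (Sdsl, Shmt1, Got1, Cbs, Oat, Dbt and Ivd) passed in each of the 16 settings run. Centring on hepatocyte markers was not among those settings. In liver alone, Sdsl, Got1, Cbs and Oat stayed lower with it. The liver falls of Shmt1, Dbt and Ivd were not called with it (limma adjusted p = 0.265, 0.402 and 0.295). Without chow LSEC library 2 the count of enzymes lower in liver than in LSEC was 30, against a background of 9.03% lower.

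For Oat the difference was -2.61 ± 0.35 (adjusted p = 0.000143) and for Got1 -2.83 ± 0.48 (adjusted p = 0.00185). Both had a range under 2-fold in LSEC, as did Dbt (-0.85 ± 0.19), Ivd (-0.80 ± 0.20) and Aass (-1.06 ± 0.30). For these 5 genes the LSEC fold change lay between -0.36 and 0.20, and the liver fold change between -3.07 and -0.82. Mat1a had a larger difference, -4.13 ± 1.01 (adjusted p = 0.0244), but an LSEC estimate of 2.32 ± 0.98 that did not pass. The tables of the 2 tissues were normalized separately, and a common shift of one table moves every difference.

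**Figure D5:**
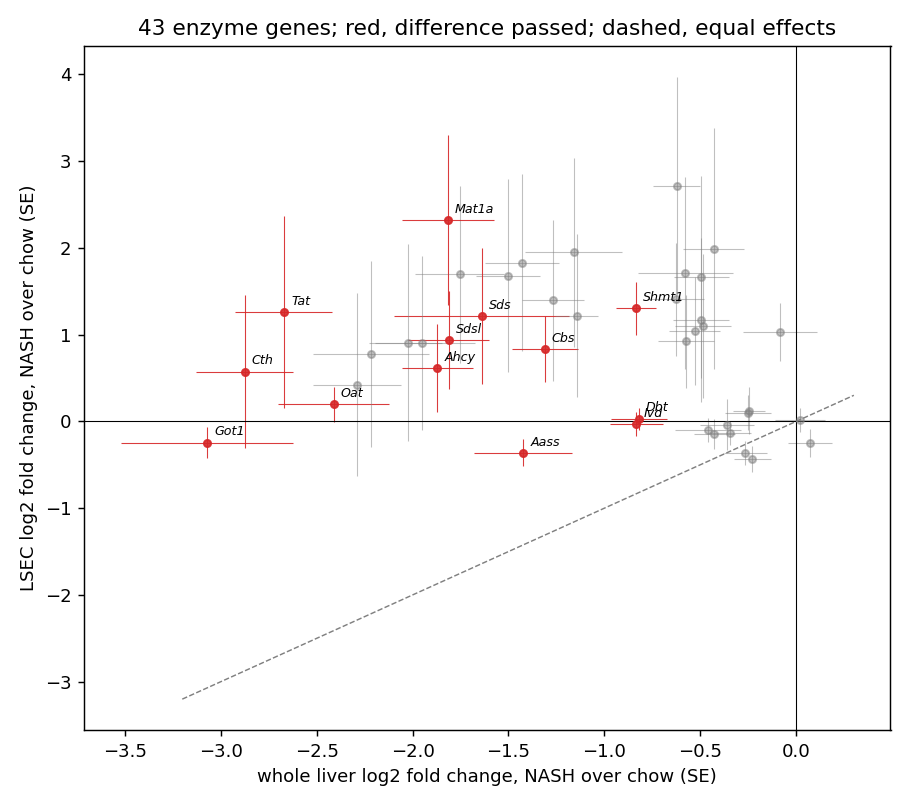
Log2 fold change of NASH over chow for each of the 43 enzyme genes in whole liver (horizontal) against LSEC (vertical), with bars of 1 SE; red genes are the 13 whose difference passed, and the dashed line marks equal effects. Most genes lie left of 0 in liver with LSEC values that spread upward with wide bars, while Got1, Oat, Aass, Dbt and Ivd lie left of the line with narrow LSEC bars near 0.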

How the data were processed

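RNA-seq of whole liver and of LSEC from C57BL/6 mice was compared between NASH diet and chow, with 3 libraries in each of 4 groups. The 43 genes and all gene lists were chosen with earlier results of these data known. The kit of the liver libraries, TruSeq per the labels' protocols, keeps no strand. The submitters' processing notes name STAR, HTSeq, DESeq2, FastQC and Seurat and the build mm10. Versions of these tools are not given in the sources used. For each tissue the deposited table holds a normalized read signal per library, beside the authors' own log2 fold change, p-value and adjusted p-value. Dividing the deposited signal by what 1 read is worth in that library gave whole reads for 100% of values, within a tolerance of 0.01. By this count the liver libraries held between 47000197 and 57397720 reads and the LSEC libraries between 18527017 and 19402863. The LSEC columns carry the diet but no replicate number, so those libraries are numbered by position as names only.

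Each tissue was fitted alone with limma 3.58.1 (R 4.3.3), with a variance trend, on log2(normalized reads + 1) and no filter on low values. Adjusted p-values are Benjamini-Hochberg values over all genes of a table, and genes under 0.05 were called. Fold changes on this scale understate those of genes with few reads. A count test was not the main one because the deposited values are normalized. For each gene the liver and LSEC effects were subtracted and divided by the standard error of that difference, with a two-sided p from a t distribution with Welch-Satterthwaite degrees of freedom. Intervals are 95% intervals of limma. The steps were tested on simulated data.

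Alternatives were edgeR 4.0.16 and DESeq2 1.42.0 on recovered reads, other scalings, thresholds, filters and pseudocounts, a replicate block, a hepatocyte covariate, and each library left out. The text names all 43 genes in liver. In LSEC it names those that pass and the 3 with the most reads in each pathway of 4 or more genes. Of each of 16 context lists it names up to 3 genes, those with the smallest adjusted p in liver (some that this rule picks are not reported here), and Alb and Apoa1 were the check on hepatocyte RNA. Other LSEC genes, the ratios of gene pairs and the classes by range were chosen after the values were seen. Gene coordinates and exon lengths come from GENCODE M21 on mm10. Exons of 9 of the 43 genes overlap another gene, and without strand those reads cannot be told apart. For Aldh4a1 the other gene, Gm21969, lies on the same strand, so strand would not separate their reads either.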

Additional observations from a re-analysis of the deposited data

Results flagged for a closer look

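The 13 enzyme genes below were picked out because the effect of NASH differed between whole liver and LSEC by a test of the difference itself (liver log2 fold change minus LSEC log2 fold change, limma fits, adjusted p under 0.05). In each the difference was negative. Among the amino group enzymes it was -3.93 for Tat, -2.85 for Sds, -2.75 for Sdsl, -2.83 for Got1 and -2.61 for Oat. In the methionine cycle and transsulfuration it was -4.13 for Mat1a, -2.49 for Ahcy, -2.14 for Cbs and -3.45 for Cth. It was -2.14 for Shmt1, which was lower in NASH liver and higher in NASH LSEC, each beyond its threshold on the deposited scale. Its liver call was lost with centring on hepatocyte markers (-0.15, limma adjusted p = 0.265). Its LSEC call was lost with edgeR (adjusted p = 0.0565) and with the hepatocyte covariate (limma adjusted p = 0.130). In branched-chain and lysine breakdown the difference was -0.85 for Dbt, -0.80 for Ivd and -1.06 for Aass.

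Hepatocyte marker levels varied between the LSEC libraries, and the part of this in the differences of Tat, Sds, Sdsl, Shmt1, Mat1a, Ahcy, Cbs and Cth was not tested. The differences of Tat, Sds, Mat1a, Cth and Aass did not pass with the edgeR interaction term (adjusted p = 0.183, 0.163, 0.0517, 0.0822 and 0.0998).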

How the results depend on the processing

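In liver the count of lower enzymes was 33 as reported. It was 19 with centring on hepatocyte markers and 20 with an absolute log2 fold change of at least 1. The count of higher enzymes was 2 with scaling by total reads and 8 with centring on hepatocyte markers. Leaving out single liver libraries gave 27 (without chow 2) to 37 (without NASH 2) lower and 0 higher. Among all 16703 liver genes 2499 were lower without chow 2 and 3307 without NASH 2, against 3512 with every library. The label numbers did not pair the liver libraries, since same-numbered deviations correlated by -0.0135, -0.0157 and 0.0981, and with the replicate block 35 were lower. No paired analysis was possible because the LSEC columns carry no replicate numbers. In LSEC the count of higher enzymes was 0 with edgeR, with the hepatocyte covariate and at an adjusted p under 0.01, and 2 with DESeq2. It was also 0 with centring on hepatocyte markers, where 0 of all 16273 LSEC genes were higher. Leaving out single libraries gave 0 to 8, with 8 without chow 2 (background 4.70%). The count of enzymes whose effect differed between tissues was 8 with the edgeR interaction, and 8 to 30 on leaving out single libraries, with 30 without LSEC chow 2. With scaling by total reads it was 13, of which Mccc1 was higher in liver. With a p from a normal distribution it was 28, and 2031 of all 15766 genes were lower and 2474 higher. On simulated data 23.2% of the calls with the normal p were false, against 7.66% with the t distribution.

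Log2 fold changes that changed sign are given here for the genes named by rule, which in LSEC are only some of the enzymes, and where no other measured value bears on it the cause was not tested. Centring on hepatocyte markers moved all liver genes up by 0.68 and all LSEC genes down by 1.92. In liver it gave 0.15 for Fah, 0.20 for Kmo, 0.19 for Haao, 0.10 for Gldc, 0.32 for Amt, 0.11 for Gpt, 0.054 for Cdo1, 0.22 for Csad, 0.60 for Prodh, 0.060 for Prodh2 and 0.43 for Aldh4a1. It gave 0.34 for Bckdha, 0.44 for Bckdhb, 0.26 for Mccc2, 0.42 for Pcca, 0.45 for Pccb, 0.25 for Uroc1, 0.19 for Ftcd, 0.27 for Echs1, 0.16 for Gcgr and 0.21 for Gstz1. In LSEC 29 of the 43 enzymes changed sign with this centring and 22 with the hepatocyte covariate. In LSEC it gave -0.66 for Tat, -0.23 for Hpd, -0.88 for Fah, -0.25 for Tdo2, -0.83 for Kmo, -0.75 for Haao, -0.62 for Shmt1, -1.001 for Gpt, -1.501 for Gnmt, -1.09 for Cbs, -0.90 for Prodh, -1.82 for Aldh4a1, -1.73 for Oat, -1.15 for Hal and -0.26 for Ftcd. The hepatocyte covariate in LSEC gave -0.75 for Tat, -0.13 for Hpd, -0.063 for Fah, -0.33 for Tdo2, -0.28 for Kmo, -0.51 for Haao, 0.18 for Amt, -1.47 for Gnmt, -0.15 for Aldh4a1, -0.90 for Hal, -0.34 for Uroc1 and -0.35 for Ftcd. In LSEC Tat was at -0.018 with edgeR and -0.021 with DESeq2, and Gnmt at -0.62 with both. Scaling by total reads gave 0.054 for Amt, 0.33 for Prodh, 0.17 for Aldh4a1, 0.073 for Bckdha, 0.17 for Bckdhb, 0.15 for Pcca, 0.19 for Pccb and 0.0066 for Echs1 in liver. In LSEC it gave 0.10 for Amt, 0.0048 for Bckdha and 0.11 for Ivd. Leaving out single libraries gave, in liver, -0.081 to 0.14 for Glud1, -0.31 to 0.16 for Prodh and -0.016 to 0.17 for Mccc1. In LSEC it gave -0.24 to 0.12 for Amt, -0.79 to 1.61 for Gnmt, -0.031 to 0.28 for Aldh4a1, -0.0035 to 0.37 for Oat, -0.10 to 0.047 for Ivd and -0.49 to 1.70 for Hal. Among the 43 enzymes, Bckdha and Bckdhb alone passed with opposite signs, lower as deposited and higher with centring on hepatocyte markers.

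Liver depth was about even across libraries. In LSEC several enzymes had few reads, which can limit the precision of a fold change, but the SE did not follow the reads alone. Prodh2, with 0 to 63.2 normalized reads, had an SE of 1.25, and Amt, with 58.9 to 98.9, had 0.30. Tat, with 40.9 to 1390.4, had 1.11. The median SE was 1.02 for the 23 enzymes with a range of 5-fold or more and 0.16 for the 15 under 2-fold. That contrast follows in part from the grouping by range.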

Other observations

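Further genes outside the enzyme list changed in either direction in NASH liver, on the deposited scale. Lower genes included Glyctk at -0.998 and Gcat at -0.89, which act on glycerate and threonine carbon, Hykk at -0.82, a hydroxylysine kinase, and Acadsb at -0.84, an acyl-CoA dehydrogenase of isoleucine breakdown (limma). With centring on hepatocyte markers Gcat, Hykk and Acadsb did not pass (adjusted p = 0.140, 0.336 and 0.336). Echs1, an enoyl-CoA hydratase, was at -0.41, and stood at 0.0066 with scaling by total reads and at 0.27 with centring on hepatocyte markers. Higher genes included the proline synthesis enzyme Aldh18a1, with 315, 325 and 419 normalized reads in NASH livers and 75.9, 68.0 and 106.6 in chow livers. Mthfd2 had 219, 243 and 222 normalized reads in NASH livers and 55.8, 45.3 and 48.2 in chow livers. For both genes the diets were well apart.

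Asns varied within the chow livers, with 249, 106.6 and 79.6 normalized reads in NASH livers and 1002, 841 and 223 in chow livers. Its lowest chow value was in chow library 3, the library that was also lowest for 35 of the 43 enzymes, and it lay below the NASH value of library 1.

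The log2 ratio of Prodh to Oat, genes that feed the same intermediate of proline and ornithine metabolism, was a pair chosen after the values were seen. It was -1.05, -2.25 and -1.60 in NASH livers and -4.35, -4.07 and -3.46 in chow livers. The mean difference was 2.33 (two-sided exact permutation p = 0.1, the smallest that 3 against 3 libraries can give). In LSEC the ratio was -4.01, -3.79 and -2.94 on NASH and -4.28, -4.30 and -4.69 on chow, a difference of 0.84 with the same exact p of 0.1. The other pairs differed in LSEC by 0.23 (Tat to Fah, exact permutation p = 0.7) and by -0.97 (Hal to Ftcd, exact permutation p = 0.2).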
